A study of Mus musculus with 12 samples.

Results

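The genes described here are 10 members of the NRF2 antioxidant programme: Nfe2l2, which encodes NRF2, its inhibitor Keap1, and the target genes Hmox1, Nqo1, Gclc, Gclm, Txnrd1, Srxn1, Slc7a11 and Gsr. They were taken by symbol from a deposited table of raw counts with 55414 gene IDs, each symbol matched 1 ID, and all 10 were among the 11332 genes with enough counts to be tested. RNA came from 12 cultures, in 4 groups of 3, of the mouse breast cancer line EO771-tdT-LM2, whose genotype the labels give as WT. All 12 cultures were in medium poor in glucose (10 mg/dl, with 1% FBS), for 30 min before seeding and then for the 24 h of treatment, so no comparison here concerns glucose itself. Control cultures received 0.1% BSA and 2.5 µg/mL IgG. GDNF cultures received 0.2 µg/mL of GDNF, a neurotrophic growth factor, and the same IgG. The labels list no BSA for them, so GDNF against control also differs in the BSA listed. Anti-NCAM1 cultures received BSA and, in place of IgG, 2.5 µg/mL of anti-NCAM1, which targets an adhesion molecule to which GDNF can bind. The last group received GDNF and the antibody, and the labels list neither BSA nor IgG for it. The labels speak of triplicates without saying whether they were separate experiments, so p-values measure only the spread between these cultures, which may be technical.

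NRF2 is a transcription factor that KEAP1, the substrate adaptor of a CUL3 ubiquitin ligase, marks for degradation. Oxidants and electrophiles modify cysteines of KEAP1, NRF2 accumulates, pairs with small MAF proteins and binds antioxidant response elements near its target genes. This control acts mainly on the stability of the NRF2 protein, which RNA counts do not measure, so the target transcripts are the usual RNA readout. The targets supply cystine (Slc7a11), make glutathione (Gclc, Gclm), recycle it (Gsr), and reduce thioredoxin and oxidised peroxiredoxins (Txnrd1, Srxn1). Others break down heme (Hmox1) and reduce quinones (Nqo1). Several of these steps draw on NADPH, much of which cells make from glucose.

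The antioxidant response element is shown in the members' own promoters, because it is the sequence through which NRF2 reaches them. RefSeq promoter windows of mouse build GRCm38.p6, from 250 bases before to 50 bases after an annotated start, were found for 7 of the 10 members: Nfe2l2, Keap1, Nqo1, Gclm, Txnrd1 with 3 windows, Srxn1 and Slc7a11. The core TGACNNNGC was searched on both strands and was present in 4 of these 7, against 14% of the 27025 genes in the table and 12.4% of its 32851 windows. The related AP-1 site TGACTCA was present, in 2 copies, in Srxn1 alone of the 7, against 5.95% of all genes, and overlapped no core in any member. A match describes letters in these windows and is not a binding site shown by these data. Variants of the core and sequence outside the windows were not searched, so a window without a match does not show that a gene lacks the element. The windows with a core are Nfe2l2 (chr2:75704614-75704913, minus strand), Gclm (chr3:122245307-122245606, plus strand), Txnrd1 (chr10:82858956-82859255, plus strand) and Srxn1 (chr2:152105274-152105573, plus strand). Each is written 5′ to 3′ along its gene's strand, with capitals for the motif matches. The core began 240 bases before the start of Nfe2l2, 134 before that of Gclm and 92 before that of Txnrd1, and 28 bases after that of Srxn1, where the capitals also mark the AP-1 matches. It reads on the gene's own strand in Nfe2l2 and on the opposite strand in the other 3.
Nfe2l2: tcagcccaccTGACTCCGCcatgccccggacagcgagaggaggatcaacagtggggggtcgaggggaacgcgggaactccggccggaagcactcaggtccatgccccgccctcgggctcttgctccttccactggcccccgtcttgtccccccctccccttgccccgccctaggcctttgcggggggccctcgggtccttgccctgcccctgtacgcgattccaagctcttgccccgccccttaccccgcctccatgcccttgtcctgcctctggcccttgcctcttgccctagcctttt
Gclm: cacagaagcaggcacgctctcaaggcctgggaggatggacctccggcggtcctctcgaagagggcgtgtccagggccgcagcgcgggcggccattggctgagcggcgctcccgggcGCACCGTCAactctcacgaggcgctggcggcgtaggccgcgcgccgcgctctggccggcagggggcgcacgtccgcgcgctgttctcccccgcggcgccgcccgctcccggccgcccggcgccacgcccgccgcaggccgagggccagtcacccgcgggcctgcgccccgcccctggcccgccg
Txnrd1: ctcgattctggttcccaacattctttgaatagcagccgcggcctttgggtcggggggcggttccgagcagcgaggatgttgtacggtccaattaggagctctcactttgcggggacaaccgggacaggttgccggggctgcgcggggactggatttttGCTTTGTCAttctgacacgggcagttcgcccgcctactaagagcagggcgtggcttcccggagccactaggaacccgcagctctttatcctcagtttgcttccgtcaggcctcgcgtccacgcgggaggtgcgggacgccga
Srxn1: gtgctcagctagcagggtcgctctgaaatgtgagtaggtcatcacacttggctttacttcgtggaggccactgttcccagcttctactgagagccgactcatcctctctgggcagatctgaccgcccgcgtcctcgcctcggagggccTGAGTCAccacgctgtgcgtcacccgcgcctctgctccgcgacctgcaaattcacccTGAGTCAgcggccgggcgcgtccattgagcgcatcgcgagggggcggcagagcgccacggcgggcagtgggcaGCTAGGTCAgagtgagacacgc

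Total counts ran from 5616398 to 8093754 per library, at which 3 counts, the limit that a count of 0 allows, correspond to 0.371 to 0.534 CPM. CPM are counts scaled to library size, here by TMM over the tested genes. GDNF replicate 3 stood apart. Transcripts of the mitochondrial genome took 10.2% of its counts and 4.11 to 5.29% elsewhere. Its log2 levels fell with GC content by 0.30 per 10 percentage points, against slopes from -0.14 to 0.11 in the other 11 libraries. Among these, GDNF replicate 2 was at -0.14, anti-NCAM1 replicates 1 and 3 at -0.07 and -0.08, and the controls at 0.07 to 0.11. Values without GDNF replicate 3 keep these other slopes. They are given beside many of the results below, as are values with each library's trend on GC content and length removed (trend removed). The cell type label was checked against markers. Of 5 epithelial markers, Krt8 (482 to 570 CPM) and Epcam (12.1 to 18.3 CPM) were present, Krt18 and Cdh1 were near 0 and Krt19 was at 0 in all 12. Of 5 fibroblast markers, Col1a1 (237 to 359 CPM) and Pdgfra (220 to 243 CPM) were abundant, and Col1a2, Dcn and Thy1 were at or near 0. The fibroblast markers summed to 567 to 589 CPM in the controls, and lower in every treated culture, to 459 to 529 with GDNF, 503 to 556 with the antibody and 523 to 537 with both. In GDNF against control cultures Col1a1 was at 273 ± 35.7 against 348 ± 13.7 CPM (SD, n = 3 each) and did not pass the test (edgeR adjusted p = 0.165). Pdgfra was at 229 ± 12.7 against 229.8 ± 4.71 CPM. Of the epithelial markers, Epcam was at 17.5 ± 1.34 against 13.6 ± 0.530 CPM (edgeR adjusted p = 0.171). Krt8 was at 519 ± 35.4 against 523 ± 18.9 CPM. The part of these marker levels in the results below was not tested. In bulk RNA, fewer cells of a kind and less RNA per cell cannot be told apart. Leukocyte markers summed to at most 0.155 CPM, macrophage markers to 5.24 to 8.02 and endothelial markers to 1.57 to 3.84.

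All 10 genes were expressed in every library, with 79 to 1961 counts each. Per kilobase of the longest annotated transcript, the mean level over the 12 libraries was highest for Txnrd1, at 65.1 CPM per kb. Nfe2l2 (59.2), Nqo1 (53.5), Srxn1 (50.3) and Gclc (46.5) came next. Hmox1 (38.4) and Gsr (35.0) followed, and from Txnrd1 to Gsr the range over libraries of each gene overlapped that of its neighbour, so the order of these 7 is not fixed beyond their spread. Gclm (18.1), Keap1 (9.18) and Slc7a11 (1.81) were lower, and at each of these steps all 12 libraries kept the order. By this measure the modifier subunit Gclm had the lower level of the 2 subunits of glutamate-cysteine ligase, and the inhibitor Keap1 a lower one than Nfe2l2. The longest transcript of Slc7a11 has 9.22 kb and that of Gclm 5.59 kb. Their levels per kb would be higher if shorter transcripts were the ones expressed, so their places in the order depend on this choice. Together the 10 genes took 0.103 to 0.116% of the counts of a library.

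**Figure D1:**
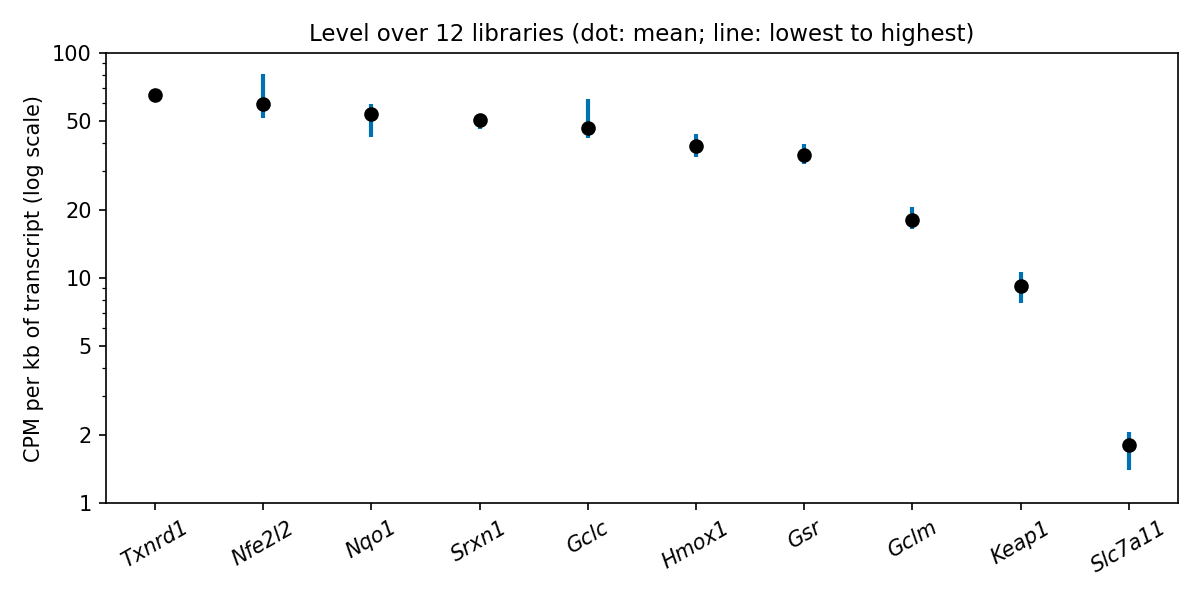
Mean level of each gene over the 12 libraries, in CPM per kb of its longest transcript on a log scale, with lines from the lowest to the highest library. Levels ran from 65.1 for Txnrd1 to 1.81 for Slc7a11, and the lines of Gclm, Keap1 and Slc7a11 do not overlap those of their neighbours.

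The first question was what GDNF did to these genes in the absence of the antibody. None of the 10 passed the test. The members with the largest differences were higher in the GDNF cultures, namely the cystine transporter subunit Slc7a11 (1.18-fold), Nfe2l2 and Gclm (1.13-fold each) and Gclc (1.13-fold), and the 95% intervals of all 10 lay between 0.777-fold and 1.47-fold. Gclm, Slc7a11 and Hmox1 were the 3 whose groups did not overlap, the first pair higher and Hmox1 lower with GDNF. The levels are given gene by gene below, always in the order of replicates 1, 2 and 3.

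**Figure D2:**
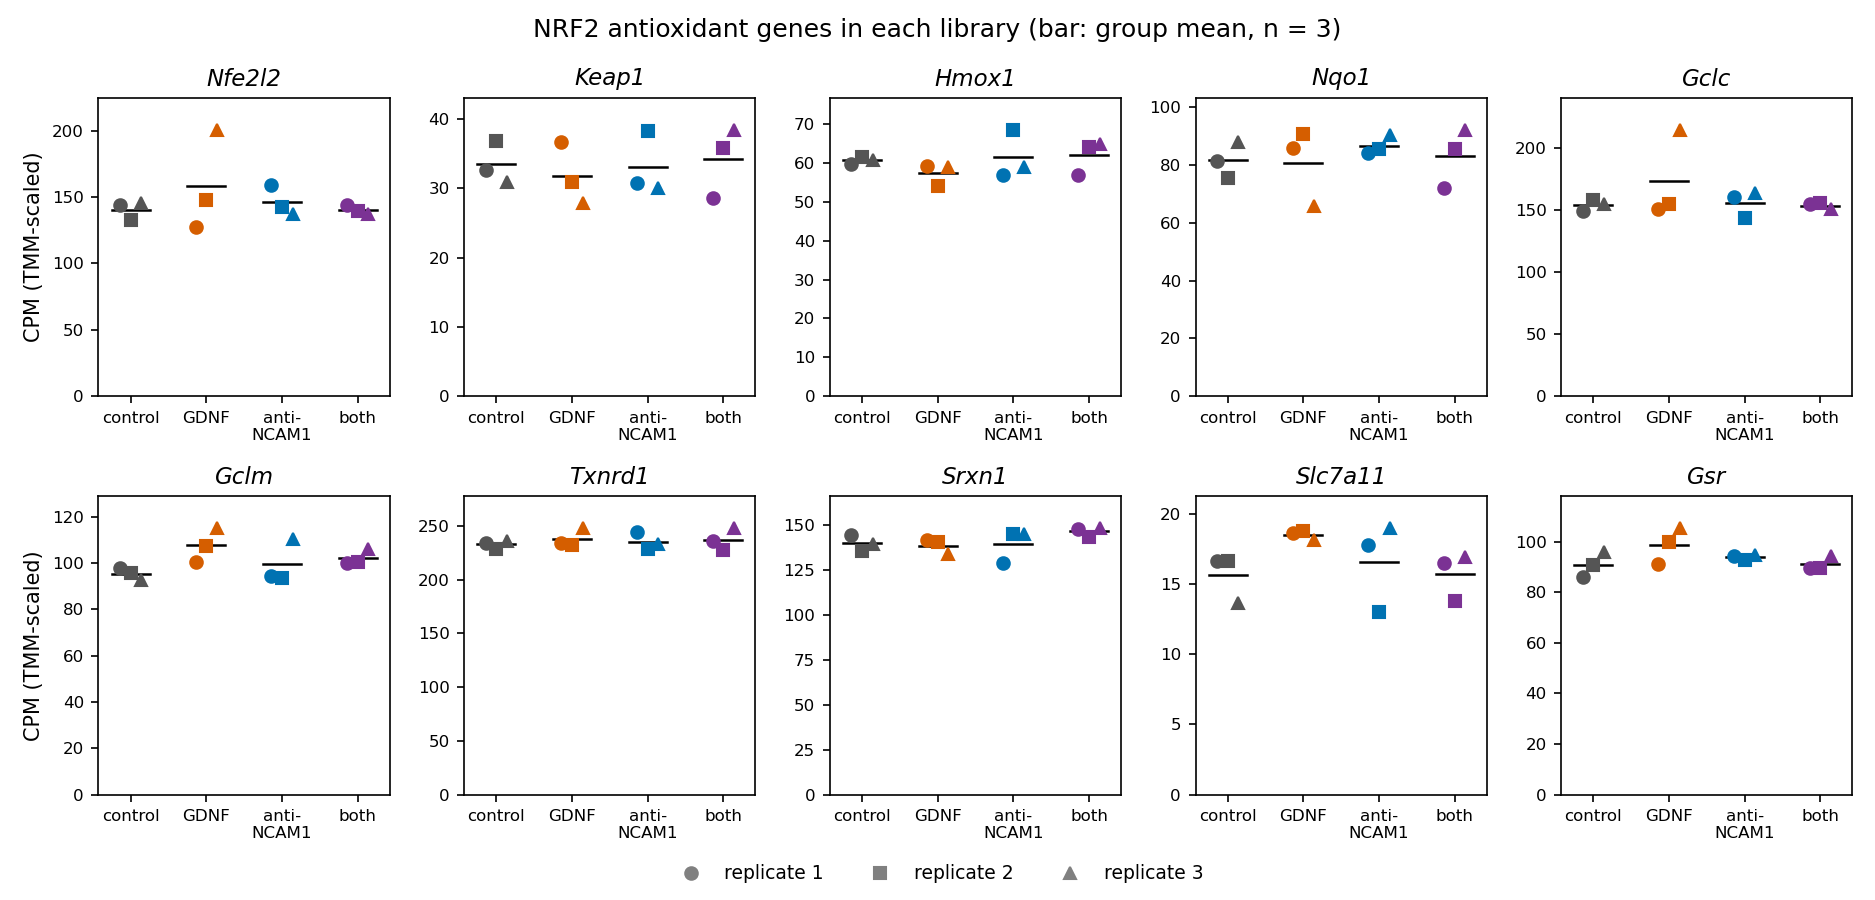
Level of each of the 10 genes in CPM (vertical axes from 0) in each library, by group, with symbols for the replicate and bars for the group mean of 3. Most groups overlap, GDNF replicate 3 is the highest point for Nfe2l2 (201 CPM), Gclc (214 CPM), Gclm (115 CPM) and Gsr (105 CPM), and it is the lowest for Keap1 (27.9 CPM) and Nqo1 (65.8 CPM).

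Of the regulators, Nfe2l2 stood at 144, 133 and 145 CPM in the controls and at 128, 148 and 201 CPM with GDNF. With the antibody it was at 159, 143 and 137 CPM, and with both agents at 144, 139.8 and 137 CPM. The GDNF group held both the lowest and the highest of the 12 libraries, and no pair of groups separated. Its log2 fold change with GDNF was 0.18 (SE 0.12), with an adjusted p of 0.399 by edgeR's quasi-likelihood test with Benjamini-Hochberg adjustment over all genes tested. The value was -0.04 without GDNF replicate 3 and 0.10 with the trend removed. Without GDNF replicate 1, the lowest library, it was 0.31 and passed the test (edgeR adjusted p = 0.0313), in a fit that called 2696 genes against 0 with all libraries. Keap1 was at 32.7, 36.9 and 30.9 CPM in the controls and at 36.6, 31.0 and 27.9 CPM with GDNF. It was at 30.9, 38.3 and 30.0 CPM with the antibody and at 28.6, 35.9 and 38.4 CPM with both. All 4 groups of Keap1 overlapped, and GDNF against control gave a log2 value of -0.08 (SE 0.14, edgeR adjusted p = 0.770). That value was 0.0074 without GDNF replicate 3, the lowest library of Keap1, and 0.13 with the trend removed.

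Glutathione synthesis begins with cystine, which the antiporter subunit encoded by Slc7a11 imports in exchange for glutamate. Slc7a11 was at 16.7, 16.7 and 13.7 CPM in the controls and at 18.7, 18.8 and 18.2 CPM with GDNF. With the antibody it was at 17.8, 13.0 and 19.0 CPM, and with both agents at 16.5, 13.8 and 17.0 CPM. The 3 GDNF cultures lay close together above the controls and above the cultures with both agents, while the antibody group held both the lowest and the highest library. The log2 fold change with GDNF was 0.24 (SE 0.15, 95% interval -0.07 to 0.56, edgeR adjusted p = 0.348). It was 0.25 without GDNF replicate 3 and 0.11 with the trend removed (edgeR adjusted p = 0.784). At 79 to 142 counts per library it was the member with the fewest counts and the widest interval.

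Gclc encodes the catalytic subunit of glutamate-cysteine ligase, the rate-limiting enzyme of glutathione synthesis. It was at 149, 158 and 154 CPM in the controls, at 150.4, 155 and 214 CPM with GDNF, at 160.1, 144 and 163 CPM with the antibody, and at 154, 156 and 150.3 CPM with both. Apart from GDNF replicate 3 every library lay between 144 and 163 CPM. Against control, GDNF gave a log2 fold change of 0.17 (SE 0.11, edgeR adjusted p = 0.355), and -0.02 without that library. Gclm encodes the modifier subunit of the same enzyme. It was at 97.8, 95.8 and 92.7 CPM in the controls and at 100.5, 108 and 115 CPM with GDNF. With the antibody it was at 94.4, 93.7 and 110.3 CPM, and with both agents at 99.9, 100.4 and 106 CPM. Every culture that received GDNF, with or without the antibody, was above every control, while the antibody group overlapped the controls. Taken singly, the GDNF group lay above control for 9.89% of all genes and the group with both agents for 7.06%. The share of genes for which both held was not counted. The log2 fold change with GDNF was 0.18 (SE 0.08, 95% interval 0.0054 to 0.35), with an unadjusted p of 0.0439 and an adjusted p of 0.239 by edgeR. Without GDNF replicate 3 it was 0.12 (edgeR adjusted p = 0.570), and with the trend removed it was 0.05 (edgeR adjusted p = 0.791).

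Gsr encodes glutathione reductase, which restores reduced glutathione with NADPH. It was at 85.9, 90.5 and 95.8 CPM in the controls, at 91.1, 99.7 and 105 CPM with GDNF, at 94.4, 92.9 and 94.8 CPM with the antibody, and at 89.5, 89.7 and 94.5 CPM with both. The groups overlapped, with the upper GDNF cultures above all others. With GDNF its log2 fold change was 0.12 (SE 0.08, edgeR adjusted p = 0.365), and 0.06 without GDNF replicate 3.

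The thioredoxin arm varied least. Txnrd1, the cytosolic thioredoxin reductase, was at 234, 229 and 235 CPM in the controls and at 234, 233 and 248 CPM with GDNF. It was at 244, 228 and 233 CPM with the antibody and at 236, 227 and 248 CPM with both. Its highest library was 1.09-fold its lowest, and the log2 fold change with GDNF was 0.03, with a 95% interval from -0.10 to 0.17. Srxn1, sulfiredoxin, which repairs over-oxidised peroxiredoxins, was at 144, 136 and 139.7 CPM in the controls and at 142, 141 and 134 CPM with GDNF. It was at 129, 145 and 146 CPM with the antibody and at 148, 144 and 148 CPM with both. Srxn1 overlapped between GDNF and control cultures, with a log2 fold change of -0.01 and a 95% interval from -0.16 to 0.13.

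Hmox1 encodes the inducible heme oxygenase and is one of the best known NRF2 targets. It was at 59.7, 61.5 and 60.6 CPM in the controls, at 59.1, 54.1 and 58.8 CPM with GDNF, at 56.9, 68.4 and 58.8 CPM with the antibody, and at 56.8, 64.0 and 64.8 CPM with both. The GDNF cultures were just below the controls, and the other groups straddled both. The log2 fold change with GDNF was -0.08 (SE 0.09, edgeR adjusted p = 0.618). Nqo1, a quinone reductase, was at 81.3, 75.6 and 88.1 CPM in the controls and at 85.8, 90.9 and 65.8 CPM with GDNF. It was at 84.2, 85.7 and 90.5 CPM with the antibody and at 72.1, 85.5 and 92.2 CPM with both. GDNF replicate 3 was its lowest library, opposite to its place for Gclc and Nfe2l2. For Nqo1 the log2 fold change with GDNF was -0.02, against 0.10 without that library and -0.11 with the trend removed.

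Counted together, 0 of the 10 members passed an edgeR adjusted p of 0.05 with GDNF against control, where 0% of all genes tested were called. At an unadjusted p under 0.05, 1 of 10 (Gclm) was past the threshold, against 20.3% of all genes. The groups did not overlap for 3 of 10, against 17.6% of all genes, with 2 of 10 higher (9.89% of all genes) and 1 of 10 lower (7.76% of all genes). Limma-voom also gave Gclm alone at the unadjusted threshold, and DESeq2 gave 0 of 10. Limma-voom with sample quality weights gave 2 of 10, Gclm and Slc7a11, with a smallest adjusted p among members of 0.0529. That weighted fit placed 4030 of the 11332 genes tested under the unadjusted threshold, a larger share than of the members. It called 2614 genes at the adjusted one. The members' median log2 fold change was 0.08 and that of all genes tested was 0.0021, with 6 of 10 members above 0. Without GDNF replicate 3 the members' median was 0.0066. The mean level of the 10 genes, as log2(CPM + 2) relative to the control mean, was 0.06 ± 0.04 (SD, n = 3) in the GDNF cultures.

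**Figure D3:**
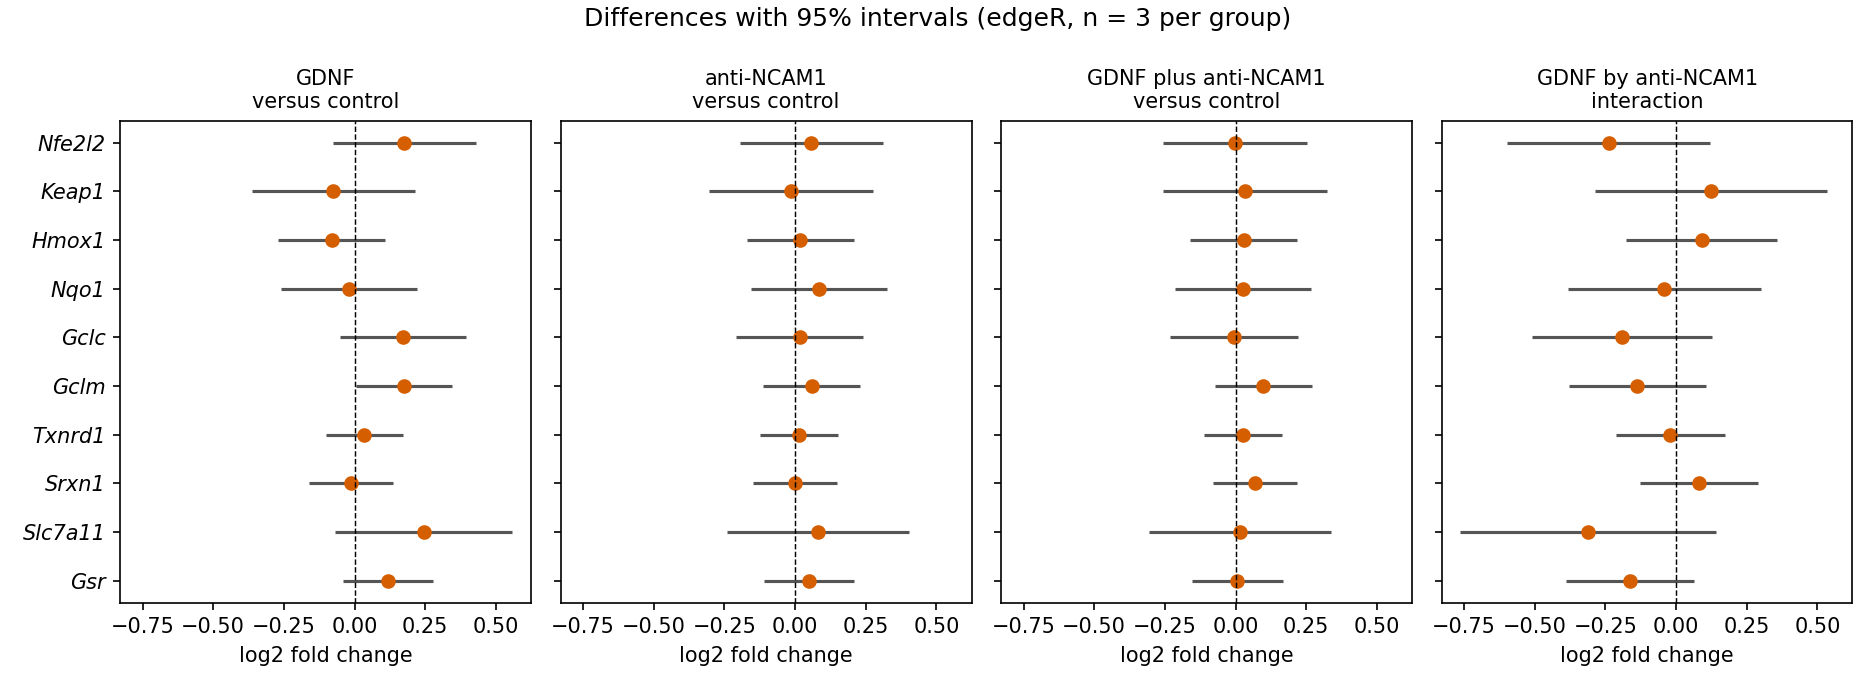
Log2 fold changes of the 10 genes (points) with 95% intervals (lines) from the edgeR fit, for each treatment against control and for the interaction. With GDNF only the interval of Gclm, from 0.0054 to 0.35, stays on one side of 0, and against control the points of the other treatments lie between -0.01 and 0.10.

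The second question was what the antibody did on its own. The 10 genes were close to control, from -0.01 for Keap1 to 0.09 for Nqo1 on the log2 scale. Nqo1 was at 81.7 ± 6.26 CPM (SD, n = 3) in the controls and at 86.8 ± 3.28 CPM with the antibody, and its groups overlapped. None of the 10 passed edgeR's test, where 0% of all genes were called, and the smallest adjusted p was 0.911 for Nqo1. At an unadjusted p under 0.05 there were 0 of 10, by DESeq2 and limma-voom too, against 5.29% of all genes by edgeR. The groups overlapped for all 10, where 16.9% of all genes had groups that did not overlap. The 95% intervals lay between 0.81-fold and 1.32-fold, the median log2 fold change was 0.03 against 0.0045 for all genes, and 8 of 10 were above 0.

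The third question was what the antibody did in cells that also received GDNF. Compared with GDNF alone, Slc7a11 was lower with both agents, at 15.8 ± 1.70 CPM against 18.5 ± 0.327 CPM (SD, n = 3 each), and Srxn1 was higher, at 147 ± 2.74 CPM against 139 ± 4.15 CPM. The groups did not overlap for these 2 of 10 genes, against 13.3% of all genes (6.2% higher and 7.12% lower). Neither passed edgeR's test, with log2 fold changes of -0.23 (SE 0.15, adjusted p = 0.457) for Slc7a11 and 0.08 (SE 0.07, adjusted p = 0.567) for Srxn1. With the trend removed the value of Slc7a11 was -0.11 and that of Srxn1 was -0.0043. Nfe2l2 (-0.18), Gclc (-0.18) and Gsr (-0.11) were lower than with GDNF alone, and Hmox1 and Keap1 (0.11 each) were higher, with overlapping groups throughout. Without GDNF replicate 3 the values of Nfe2l2, Gclc and Gsr were 0.03, 0.01 and -0.06, and those of Hmox1 and Keap1 were 0.13 and 0.02. With the trend removed Hmox1 was at 0.04 and Keap1 at -0.07. Without GDNF replicate 1 that of Nfe2l2 was -0.31 and passed the test (edgeR adjusted p = 0.0391), in a fit that called 1986 genes. With all libraries 0 of 10 members passed, where 0% of all genes were called by edgeR, and 0 of 10 had an unadjusted p under 0.05, against 14% of all genes. DESeq2 and limma-voom also gave 0 of 10. Limma-voom with quality weights gave Hmox1 alone at the unadjusted threshold, where it placed 3249 of the 11332 genes tested, a larger share. The members' median was -0.04 and that of all genes was 6e-04.

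Whether the effect of GDNF differed with the antibody was tested as the interaction, the GDNF effect with the antibody minus that without it. Slc7a11 had the largest value on the log2 scale, -0.31 (SE 0.21, 95% interval -0.76 to 0.14), followed by Nfe2l2 at -0.24 (SE 0.17), Gclc at -0.19 (SE 0.15) and Gsr at -0.16 (SE 0.11). Keap1 (0.12), Hmox1 (0.09) and Srxn1 (0.08) were above 0. Without GDNF replicate 3 Slc7a11 was at -0.32, Nfe2l2 at -0.02, Gclc at 0.0013, Gsr at -0.10 and Keap1 at 0.04. Removing the trend put Slc7a11 at -0.13, Nfe2l2 at -0.14, Keap1 at -0.17, Hmox1 at 0.02 and Srxn1 at -0.04. None of the 10 passed edgeR's test, where 0% of all genes were called, and the smallest adjusted p was 0.427 for Gsr. At an unadjusted p under 0.05 there were 0 of 10 by edgeR, DESeq2 and limma-voom, against 16.8% of all genes by edgeR. Limma-voom with quality weights gave Slc7a11 alone at this threshold, where it placed 3937 of the 11332 genes tested, a larger share. The members' median was -0.09 against -0.0090 for all genes, and -0.01 without GDNF replicate 3.

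With both agents against control, the members ran from -0.0045 for Gclc to 0.10 for Gclm on the log2 scale. Gclm was at 102 ± 3.42 CPM (SD, n = 3) with both agents and at 95.4 ± 2.58 CPM in the controls, and it was the 1 of 10 genes whose groups did not overlap, against 13.3% of all genes (7.06% higher and 6.27% lower). Its log2 fold change was 0.10 (SE 0.08), with an unadjusted p of 0.245. None of the 10 passed the adjusted threshold, where 0% of all genes were called, or the unadjusted one, where edgeR placed 1.95% of all genes. DESeq2 and limma-voom gave 0 of 10 as well. In GDNF-treated against untreated cells that all received the antibody, the groups overlapped for all 10 members, against 11.3% of all genes whose groups did not. In that comparison 0 of 10 passed (0% of all genes) and 0 of 10 had an unadjusted p under 0.05 by edgeR, DESeq2 or limma-voom, against 2.51% of all genes by edgeR. In GDNF alone against the antibody alone, 0 of 10 passed (0% of all genes), 0 of 10 had an unadjusted p under 0.05 by the same 3 tools (6.33% of all genes by edgeR), and the groups of all 10 overlapped (6.78% of all genes did not). Members' medians in these 3 comparisons were 0.03, -0.0052 and 0.04 on the log2 scale. The comparisons share groups, so their values are not independent.

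The members differed in how much they varied between cultures of the same treatment. The within-group SD of log2(CPM + 2) was 0.05 for Txnrd1, lower than in all but 1.34% of the genes tested. It was 0.06 for Srxn1 (percentile 3.83) and 0.07 for Gsr (percentile 6.49). At the other end stood Nfe2l2 and Keap1, at 0.18 each (percentiles 65.2 and 65.1). The median over members was 0.12, against 0.15 over all genes tested. Counting error differs with level, and genes were not matched on level here.

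Nfe2l2 and Keap1 moved apart in GDNF replicate 3, where the CPM of Nfe2l2 was 7.19 times that of Keap1, against 3.48 to 5.17 times in the other 11 libraries. The ratio was 4.23 ± 0.575 (SD, n = 3) in the controls and 5.15 ± 1.88 with GDNF, a difference within the spread (exact permutation p = 0.6, two-sided, where 3 against 3 cannot go below 0.1). The ratio of Nqo1 to Gclc was 0.307 in GDNF replicate 3 and 0.467 to 0.613 elsewhere, and its group means were 0.532 ± 0.0481 in the controls and 0.488 ± 0.157 with GDNF (exact permutation p = 0.9, n = 3 each). The CPM of Gclc was 1.42 to 1.86 times that of Gclm in the 12 libraries, with the highest value again in GDNF replicate 3 and an exact permutation p of 0.9 for GDNF against control. Ratios of CPM between genes depend on transcript length and are compared here only between libraries.

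The deviations of GDNF replicate 3 were set beside that library's own trend on GC content and transcript length over all genes. Nfe2l2 deviated from its 12-library mean by 0.46 on the log2 scale where the trend gave 0.07, and Gclc by 0.43 where the trend gave 0.05. Nqo1 deviated by -0.32 where the trend gave 0.10, so these 3 genes lay farthest from the trend among the 10, in both directions. How far genes in general lay from it was not measured. Gclm lay on it, at 0.19 for both, and Slc7a11 was at 0.12 where the trend gave 0.24. Keap1, with a GC content of 58.0% the most GC-rich of the 10, was at -0.23 where the trend gave -0.32. The observed value and the trend had the same sign for 7 of 10 members, a count for which the share over all genes was not taken. What set this library apart was not tested.

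**Figure D4:**
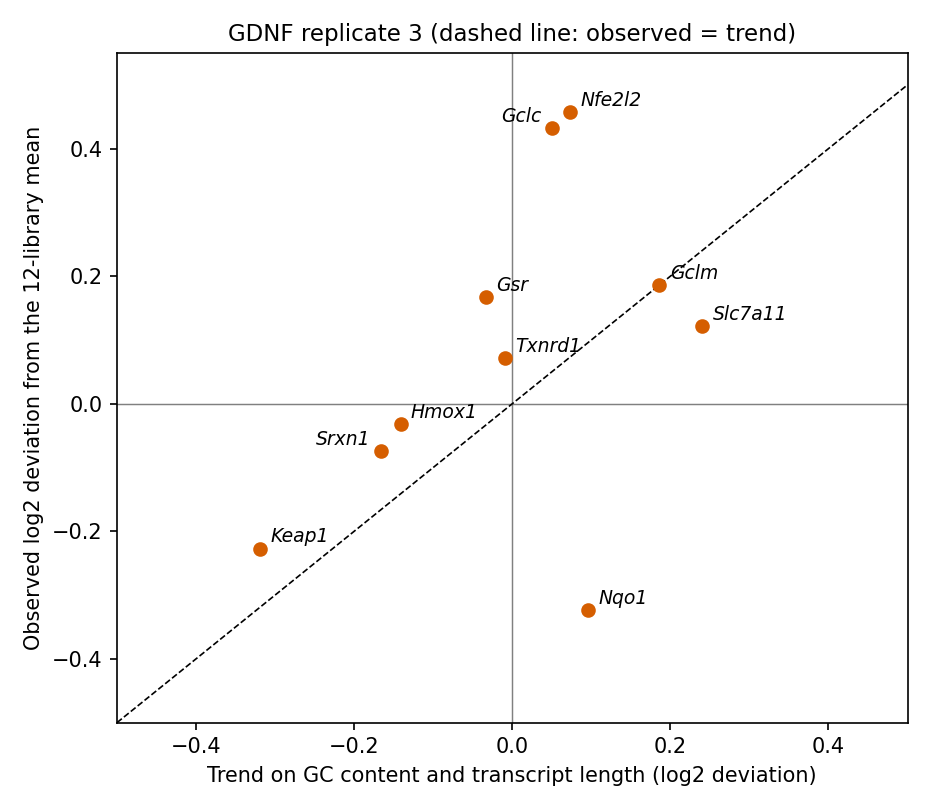
Observed log2 deviation of each gene in GDNF replicate 3 from its 12-library mean (vertical axis) against the deviation given by that library's trend on GC content and transcript length (horizontal axis). Gclm lies on the dashed line of equality, Nfe2l2 (0.46) and Gclc (0.43) lie above it and Nqo1 (-0.32) lies below.

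Across the 12 libraries the members did not form a single pattern. The 45 pairs had Pearson correlations of log2(CPM + 2) from -0.71 to 0.85, with 22 above 0. As a description, Nfe2l2 and Gclc had the highest, at 0.85, but 0.16 without GDNF replicate 3. Keap1 and Hmox1 were at 0.74, and 0.78 without that library. Slc7a11 and Hmox1 had the lowest, at -0.71 with and without it. Pairs beyond 0.5 in size numbered 17 with all libraries and 7 without GDNF replicate 3. The tested genes whose levels were most like those of Nfe2l2 over the 12 libraries were Nedd4 (r = 0.96), Npat (0.96) and Nipbl (0.96), and those most like Keap1 were Armc9 (0.92), Slc12a7 (0.91) and Nr2f6 (0.87). Without GDNF replicate 3 the values were 0.84, 0.82 and 0.80 for the genes like Nfe2l2, and 0.90, 0.89 and 0.84 for those like Keap1. All these correlations share libraries that differ in depth and GC trend, and were picked as the highest of all genes tested.

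The wider pathway was read from 3 lists, of which 0 genes were called in any of the 7 comparisons. Of the partners and regulators of NRF2, 14 of 15 were tested, and 2 were higher and 2 lower with GDNF at an unadjusted p under 0.05, a threshold that 20.3% of all genes passed in this comparison. Their median log2 fold change was -0.10, with 5 of 14 above 0. Dpp3, a peptidase that binds KEAP1, was at 63.8, 68.6 and 68.7 CPM in the controls and at 59.6, 53.5 and 44.4 CPM with GDNF. Its GDNF cultures lay below all controls, as they did for 7.76% of all genes. Dpp3 had a log2 fold change of -0.36 (SE 0.11, edgeR adjusted p = 0.165), or -0.25 without GDNF replicate 3. Cul3, the scaffold of the KEAP1 ligase, was at 157, 148 and 152 CPM in the controls and at 155, 173 and 237 CPM with GDNF, with a log2 fold change of 0.30 (edgeR adjusted p = 0.196) that was 0.09 without GDNF replicate 3. Btrc, the adaptor of another ligase that targets NRF2, was at 24.2, 24.1 and 22.9 CPM in the controls and at 26.6, 25.9 and 34.2 CPM with GDNF. With the antibody alone it was at 26.6 to 27.3 CPM, also above all controls. That group and control did not overlap for 16.9% of all genes, in either direction. With both agents Btrc was at 21.3 to 25.5 CPM. The GDNF and control groups did not overlap (9.89% of all genes were higher in this way). With GDNF the log2 fold change of Btrc was 0.29 (edgeR adjusted p = 0.213), and 0.14 without GDNF replicate 3. Removing the trend gave -0.18, 0.11 and 0.12 for Dpp3, Cul3 and Btrc. The smallest interaction p-values of this list were those of Mafg, a small MAF partner of NRF2, at 0.41 on the log2 scale, Btrc at -0.53 and Dpp3 at 0.44, each with an edgeR adjusted p of 0.240. With the trend removed these interaction values were 0.21, -0.32 and 0.19.

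Of 35 other NRF2 targets 29 were tested, with 2 higher and 1 lower at the unadjusted threshold with GDNF (20.3% of all genes) and a median log2 fold change of 0.03. The genes with the smallest p were the glutathione conjugate exporter Abcc1 (-0.22), the peroxiredoxin Prdx1 (0.17) and the microsomal glutathione transferase Mgst1 (0.17), with edgeR adjusted p-values from 0.205 to 0.240 and overlapping groups. These became -0.16, 0.02 and 0.02 with the trend removed. With the antibody alone none of the 3 overlapped control, as held for 16.9% of all genes. Abcc1 was lower, at 227 to 229 CPM. Prdx1 was higher, at 513 to 578 against 438 to 483 CPM, and so was Mgst1, at 86.2 to 93.5 against 73.7 to 84.7 CPM. With both agents Prdx1 (507 to 513 CPM) and Mgst1 (88.3 to 93.2 CPM) lay above all controls (7.06% of all genes), and Abcc1 overlapped them. Abcc1 was at 259, 252 and 239.9 CPM in the controls and at 242, 226 and 177 CPM with GDNF, and its log2 fold change was -0.10 without GDNF replicate 3. In the interaction the list's smallest p-values were those of the heme transporter Slc48a1 (0.32), Abcc1 (0.28) and Prdx1 (-0.24), which were 0.12, 0.20 and -0.03 with the trend removed. Without GDNF replicate 3 the interaction of Abcc1 was 0.17. Prdx1, the ferritin genes and the glutathione transferases in this list have near-identical copies among which reads may have been split, so their values are uncertain.

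Of 26 further enzymes of glutathione, thioredoxin and peroxide metabolism, 24 were tested, with 3 higher and 0 lower at the unadjusted threshold with GDNF (20.3% of all genes) and a median log2 fold change of -0.02. Gpx8, a glutathione peroxidase of the endoplasmic reticulum, was at 39.3, 41.1 and 41.5 CPM in the controls and at 52.0, 53.8 and 56.8 CPM with GDNF. With the antibody it was at 46.8, 44.0 and 59.6 CPM, and with both agents at 42.9, 44.6 and 43.4 CPM. All GDNF cultures lay above all controls (9.89% of all genes) and above all cultures with both agents (7.12% of all genes). The cultures with the antibody alone and those with both agents also lay above all controls. Against control, the antibody group did not overlap for 16.9% of all genes, in either direction, and the group with both agents was higher for 7.06%. The share of genes for which all of this held was not counted. The log2 fold change with GDNF was 0.41 (SE 0.10), with an unadjusted p of 0.00097 and an adjusted p of 0.165 by edgeR, and it was 0.37 without GDNF replicate 3 and 0.24 (edgeR adjusted p = 0.406) with the trend removed. The interaction of Gpx8 was -0.61 (SE 0.15, edgeR adjusted p = 0.240), -0.57 (edgeR adjusted p = 0.0711) without that library and -0.36 with the trend removed. Ggct, which breaks down gamma-glutamyl peptides, was at 9.49, 8.73 and 9.73 CPM in the controls and at 12.3, 11.9 and 17.3 CPM with GDNF. With the antibody alone it was at 9.77 to 12.7 CPM, and with both agents at 9.75 to 10.8 CPM. These groups, too, lay above all controls, narrowly, with shares over all genes as given for Gpx8. The GDNF and control groups did not overlap (9.89% of all genes were higher in this way). With GDNF the log2 fold change of Ggct was 0.58 (SE 0.17, edgeR adjusted p = 0.165), and 0.37 without GDNF replicate 3. Sod1, the cytosolic superoxide dismutase, was at 281, 252 and 285 CPM in the controls and at 273, 282 and 432 CPM with GDNF, and its log2 fold change of 0.27 (edgeR adjusted p = 0.242) was 0.02 without that library. In the interaction Ggct was at -0.69 and Chac1, a glutathione-degrading enzyme, at 0.46, which was 0.23 with the trend removed. Without GDNF replicate 1, where edgeR called 2696 genes with GDNF against control, Dpp3, Cul3, Abcc1, Gpx8, Ggct and Sod1 passed, with adjusted p-values from 0.00604 to 0.0201. In the interaction of the same fit, where edgeR called 1875 genes, Mafg, Btrc, Dpp3, Slc48a1, Abcc1, Gpx8 and Ggct passed, with adjusted p-values from 0.00945 to 0.0418. The genes of both comparisons were named for small p-values with all libraries, so their passing here is not separate support.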

How the data were processed

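The data are raw counts per gene for 12 libraries, deposited by the authors as 1 table of whole numbers. Per the submitters' processing notes the tools include kallisto 0.46.2, with quality reports from FastQC and MultiQC, and the builds are GRCm39 and mm10, in roles not stated, so no coordinates were taken from the counts. The handling of multi-mapping reads and of strand is not given in the sources used here. Symbols were matched to 52081 of the 55414 IDs, and all columns were mapped to a sample.

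Genes were kept with filterByExpr (minimum count 10, minimum total 15), which left 11332, scaled by TMM and fitted in edgeR 4.0.16 (quasi-likelihood F test, R 4.3.3) in 1 model with 4 groups and no covariate. Tests were two-sided over 7 comparisons, with Benjamini-Hochberg adjustment over all genes tested and calls at 0.05. SE is the log2 fold change divided by the square root of F, and 95% intervals use the t distribution. Levels use a pseudocount of 2 CPM. GC content and length, from the longest GENCODE M21 transcript, were available for 11313 genes, and lowess (span 0.3) gave the trend of each library on both. Promoter sequences are from RefSeq.

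The alternatives were DESeq2 1.42.0 without independent filtering, limma-voom (limma 3.58.1) without and with sample quality weights, scaling by upper quartile or by DESeq2 size factors, no filter, 1 CPM in 3 libraries, the compared groups only, the replicate number as a block, removal of the trend, that removal with GDNF replicate 3 left out, and leaving out each library. The fit was first tested on simulated counts. No pair of replicates agreed within sampling noise (chi-square per degree of freedom from 1.66 to 73.6 over 12 pairs). Floors cover counting error only.

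The members, the wider lists and the alternatives were chosen with earlier results of these data known. The genes named are all members, the 3 genes of each wider list with the smallest p with GDNF against control and in the interaction, and the 3 genes with the highest correlation to Nfe2l2 and to Keap1. Marker genes are named as a check.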

Additional observations from a re-analysis of the deposited data

How the results depend on the processing

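Of 1600 member values under the alternatives, 142 had another sign than the reported value, and in 17 of these the reported value exceeded its SE; these 17 are given below. Member calls changed only for Nfe2l2 without GDNF replicate 1, with GDNF against control (0.31) and with both agents against GDNF (-0.31), so the count of members called ran from 0 to 1 there over left-out libraries and stayed at 0 in the other comparisons. With the trend removed and GDNF replicate 3 left out, Nfe2l2 was at -0.083 and Gclc at -0.042 with GDNF against control, 0.062 and 0.030 with both against GDNF, and 0.050 and 0.038 in the interaction, where Gclm was at 0.024 and the members' median at 0.0020. In that setting Gclc was at -0.033 with GDNF against the antibody, and the median with both against GDNF was 0.024. With the trend removed alone, Srxn1 was at -0.0043 with both against GDNF and Gclm at 0.032 in the interaction. With quality weights Gclc was at -0.015 with GDNF against the antibody. Over left-out libraries, Nfe2l2 ran from -0.037 to 0.31 and Gclc from -0.020 to 0.26 with GDNF against control, Nfe2l2 from -0.31 to 0.030 and Gclc from -0.27 to 0.010 with both against GDNF, and Gclc from -0.029 to 0.25 with GDNF against the antibody and from -0.28 to 0.0013 in the interaction. The members' medians ran from 0.0066 to 0.11 with GDNF against control, from -0.073 to 0.015 with both against GDNF and from -0.14 to -0.011 in the interaction, where a shift is counted from the pooled SD of the mean member level, 0.0361. The cause of these changes was not tested.

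Counts of genes called, 0 in each comparison as reported, depended on the setting. In the order GDNF against control, antibody against control, both against GDNF, GDNF against antibody and interaction, they were 2614, 277, 1462, 2 and 2425 with quality weights, 736, 8, 348, 83 and 403 with no filter, and 6, 22, 1, 2 and 25 with the trend removed and GDNF replicate 3 left out. Over left-out libraries they ran from 0 to 2696, 0 to 8, 0 to 1986, 0 to 96 and 0 to 1875. The highest came without GDNF replicate 1, or without GDNF replicate 3 for the antibody against control. With both agents against the antibody there were 7 with quality weights, 4 with no filter and 5 with the compared groups only. With both against control there were 4 with no filter and 25 with the compared groups only, where the antibody against control gave 33. DESeq2 called 1 gene with GDNF against the antibody.

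Same-numbered libraries did not deviate together (correlations from -0.23 to 0.12 over 18 pairs, 1 above 0.1), so the numbers are not read as pairs. With the replicate block 0 genes were called in every comparison, and Gclm was at 0.17 (edgeR adjusted p = 0.245) with GDNF against control. Depth limits Slc7a11 most, at 79 to 142 counts per library.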
